A study of Mus musculus with 2 samples.

Results

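The Mir130 and Mir301 family was followed through its 4 genes, Mir130a, Mir130b, Mir301 and Mir301b, out of 2202 microRNA genes counted. The rule that picks them uses their symbols in GENCODE annotation M21 and no measured value, though the family was taken up with earlier results of these data known. All 4 were in both count tables. Small RNA below 30 bases was sequenced from the left cerebral cortex. The donors were female B6CASTF1/J mice aged 4 days, in 1 group of 2 biological replicates with 1 library each. B6CASTF1/J mice are first-generation hybrids of a C57BL/6 parent and a castaneus parent, with no treatment named in the labels. The labels number the 2 biological replicates separately but give both the same donor record. That each replicate is 1 animal was taken from the replicate numbers. There was no second condition, so levels are descriptions, and differences of single genes between the libraries have no test. Whether such differences come from the animal, the dissection or the library preparation cannot be told apart.

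A microRNA gene is transcribed into a hairpin, from which enzymes cut a short RNA out of each arm, the 5p and the 3p product. One product is loaded into an Argonaute protein and guides it to messenger RNAs that pair with its seed, bases 2 to 8, and such messages are repressed. MicroRNAs with the same seed are grouped as a family because they can recognise the same sites. In this family the 3p products are the usual guides. In human cells, miR-130a is known from endothelium, where it represses homeobox genes that restrain vessel growth, and the family is known for repressing PPARG in fat cell precursors. MiR-301a is known from human tumours, where it acts on an inhibitor of NF-kappaB.

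The 3p sequences are shown because they define the family, with the seed in capitals. They came from RefSeq on build GRCm38.p6, whose table matched all 4 genes and gave 7 mature products for them.
mmu-miR-130a-3p: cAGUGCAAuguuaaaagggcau
mmu-miR-130b-3p: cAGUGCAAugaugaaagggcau
mmu-miR-301a-3p: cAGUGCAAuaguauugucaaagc
The 3p product of Mir301b is miR-301b-3p.

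The first 2 of these sequences are 22 bases long and differ at 2 positions counted from the 5′ end of miR-130a-3p, U11A and A13G. They share their first 10 and their last 9 bases. MiR-301a-3p has 23 bases, shares 9 bases at its 5′ end with either of them and has another 3′ end. All 3 carry the seed AGUGCAA, so within the seed these products cannot be distinguished.

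The 5p products are shown because their seeds, again in capitals, split the family into smaller groups.
mmu-miR-130a-5p: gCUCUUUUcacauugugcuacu
mmu-miR-130b-5p: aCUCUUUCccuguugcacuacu
mmu-miR-301a-5p: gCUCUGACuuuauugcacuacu
mmu-miR-301b-5p: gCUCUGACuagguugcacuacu

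Mir301 and Mir301b share the 5p seed CUCUGAC, and their 5p products differ at 3 neighbouring positions of 22, U10A, U11G and A12G. The 5p seeds of Mir130a and Mir130b differ from that seed and from each other. The counts were made over whole hairpins, so the shares of the 5p and 3p products were not measured.

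The 4 genes lie at 3 loci (mm10 coordinates). Mir130b (ENSMUSG00000065572.1, chr16:17124061-17124142, minus strand) and Mir301b (ENSMUSG00000076288.1, chr16:17124400-17124496, minus strand) form a cluster, with 257 bases between their hairpins. Both lie within introns of 2610318N02Rik on its own strand, and no exon of the 3 annotated transcripts that span them covers either hairpin. Mir301 (ENSMUSG00000065589.1, chr11:87113004-87113089, plus strand) lies in an intron of Ska2, a gene for a subunit of the spindle and kinetochore complex of dividing cells, and has the same orientation as its host. Mir130a (ENSMUSG00000065484.1, chr2:84741115-84741178, minus strand) overlaps no other annotated gene. Its nearest neighbours are Gm19426 at 990 bases and Ypel4 at 2459 bases. No other microRNA gene lies within 10 kb of any member, apart from the pair on chromosome 16.

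Replicate 2 held 2761003 reads on the annotated strand of microRNA genes, out of 9938361 reads in all, and replicate 1 held 3555469 out of 11686912. Levels are CPM, counts scaled to the same total of microRNA reads in each library, so 1 CPM was worth 2.76 reads in replicate 2 and 3.56 in replicate 1. Detection required at least 2 CPM in each library. Reads that mapped to several places were assigned to no gene, and they made up 41.0% of replicate 2 and 45.8% of replicate 1. Neuronal microRNAs held the largest sum of the 9 marker lists, with 8 markers that summed to 62348 CPM in replicate 2, against 84344 CPM in replicate 1. Only 5 of these 8 were detected, and Mir124a-1, Mir124a-2 and Mir124a-3 were not. A read that matches several Mir124a copies is assigned to no gene, so these low counts do not show that the product was absent. The same limit holds for the Mir9 copies among the neural progenitor markers. The lists hold from 1 to 8 markers, so their sums do not compare kinds of cell. Of 38 markers of 9 kinds of cell, 31 were detected, and the 2 libraries were not the same library deposited under both names (chi-square 168753 on 524 degrees of freedom over 525 genes, a comparison of libraries only).

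All 4 members were detected, against 20.4% of all 2202 microRNA genes. Together they held 1.25% (95% Wilson interval 1.23 to 1.26) of microRNA counts in replicate 2 and 1.06% (1.05 to 1.07) in replicate 1, a mean of 1.15% ± 0.136 (SD, n = 2). The order of their levels was the same in both libraries, Mir130a first, then Mir130b, Mir301 and Mir301b. The lower of 2 neighbours in that order never reached the range of the higher one over the 2 libraries, so the ranges of neighbours did not overlap.

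Mir130a had 29643 counts (10736 CPM) in replicate 2 and 33516 counts (9427 CPM) in replicate 1, a mean of 10082 ± 926 CPM (SD, n = 2). It was the 18th and 23rd most abundant gene of the 2 libraries in that order, and by its mean it ranked 22 of 2202. Ranks and shares of all microRNA counts leave out reads that mapped to several places, so microRNAs with several copies may rank too low. Mir130a supplied 86.1% (Wilson interval 85.7 to 86.4) of the family's counts in replicate 2 and 89.3% (89.0 to 89.6) in replicate 1. Most of the family's counts thus came from this gene in both libraries.

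Mir130b, the next in level, had 3322 counts (1203 CPM) in replicate 2 and 3306 counts (930 CPM) in replicate 1, a mean of 1067 ± 193 CPM (SD, n = 2), and ranked 103. It held 9.64% (9.34 to 9.96) of the family's counts in replicate 2 and 8.81% (8.52 to 9.10) in replicate 1. Mir130a exceeded it 8.92-fold (exact interval 8.61 to 9.25) in replicate 2 and 10.1-fold (9.78 to 10.5) in replicate 1. These 2 intervals do not overlap, but they cover counting error only.

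Mir301 had 1408 counts (510 CPM) in replicate 2 and 633 counts (178 CPM) in replicate 1, a mean of 344 ± 235 CPM (SD, n = 2), and ranked 159. It was the member whose libraries lay furthest apart. Its share of the family was 4.09% (3.88 to 4.30) in replicate 2 and 1.69% (1.56 to 1.82) in replicate 1. The excess of Mir130b over it was accordingly 2.36-fold (2.22 to 2.51) in replicate 2 and 5.22-fold (4.80 to 5.69) in replicate 1.

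Mir301b was the lowest member, with 73 counts (26.4 CPM) in replicate 2 and 89 counts (25.0 CPM) in replicate 1, a mean of 25.7 ± 0.995 CPM (SD, n = 2), and ranked 283. Although it lies in the same cluster as Mir130b, its counts were 45.5-fold (36.1 to 58.2) below those of Mir130b in replicate 2 and 37.1-fold (30.1 to 46.4) below them in replicate 1, intervals that overlap. Mir301, whose 5p seed it shares, exceeded it 19.3-fold (15.2 to 24.7) in replicate 2 and 7.11-fold (5.69 to 8.98) in replicate 1.

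The hairpins differ in annotated length, 64 bases for Mir130a, 82 for Mir130b, 86 for Mir301 and 97 for Mir301b. Per 100 bases of hairpin the order of levels was the same. Mir130a stood at 16775 CPM per 100 bases in replicate 2 and 14729 in replicate 1, and Mir301b at 27.3 and 25.8. Since a small RNA library reads products of nearly equal length, plain CPM was kept as the level.

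**Figure D1:**
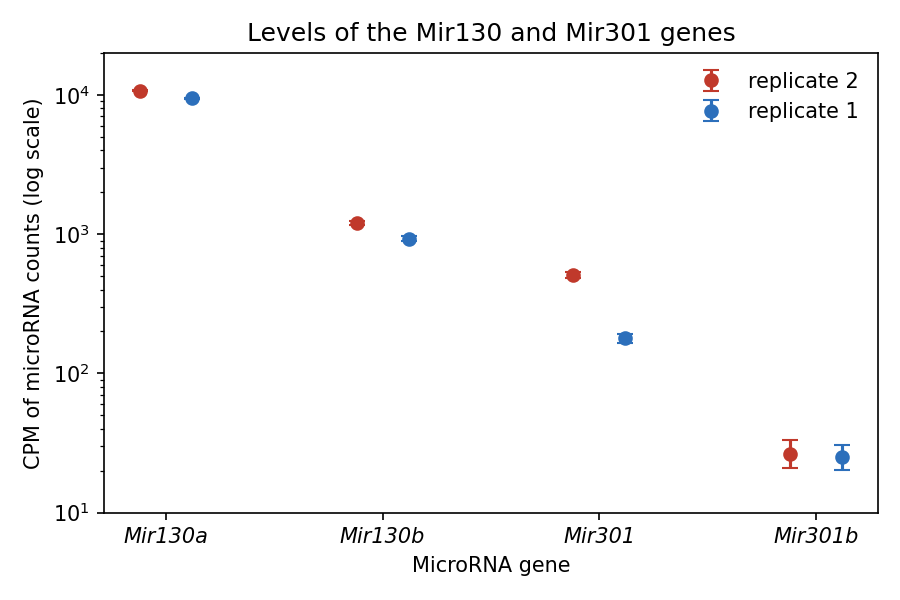
Level of each member in CPM of microRNA counts on a log axis, for replicate 2 (left of each pair) and replicate 1, with 95% Wilson intervals that cover counting error only. The levels step down from about 10082 CPM for Mir130a to 25.7 CPM for Mir301b, and only the Mir301 pair, at 510 and 178 CPM, is widely separated.

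Ratios between the animals were taken as log2 of replicate 2 over replicate 1 after TMM scaling, a trimmed mean that centres most genes on 0. Mir301 had a log2 ratio of 1.56 (exact counting interval 1.42 to 1.69), or 2.94-fold higher in replicate 2. Mir130a and Mir130b had log2 ratios of 0.23 (0.20 to 0.25) and 0.41 (0.34 to 0.48), or 1.17-fold and 1.33-fold higher in replicate 2. Mir301b had 0.12 (-0.35 to 0.58), an interval that includes no difference.

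All 4 ratios were above 0, as were 263 of the 525 genes whose counts over both libraries came to 10 or more. The median over the members was 0.32, beside 0.01 over those 525 genes. A difference of 2-fold or more was reached by 1 of 4 members, Mir301, against 23.8% of the 525 genes, and 11.2% of them were that much higher in replicate 2. Among 308 genes whose counts came to 100 or more, 5.19% were 2-fold or more higher in replicate 2. In size the ratio of Mir301 was exceeded by 46 of the 525 genes and by 19 of the 308. The other members lay nearer the bulk of genes, with 265 genes of larger ratio than Mir130b, 368 than Mir130a and 444 than Mir301b.

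**Figure D2:**
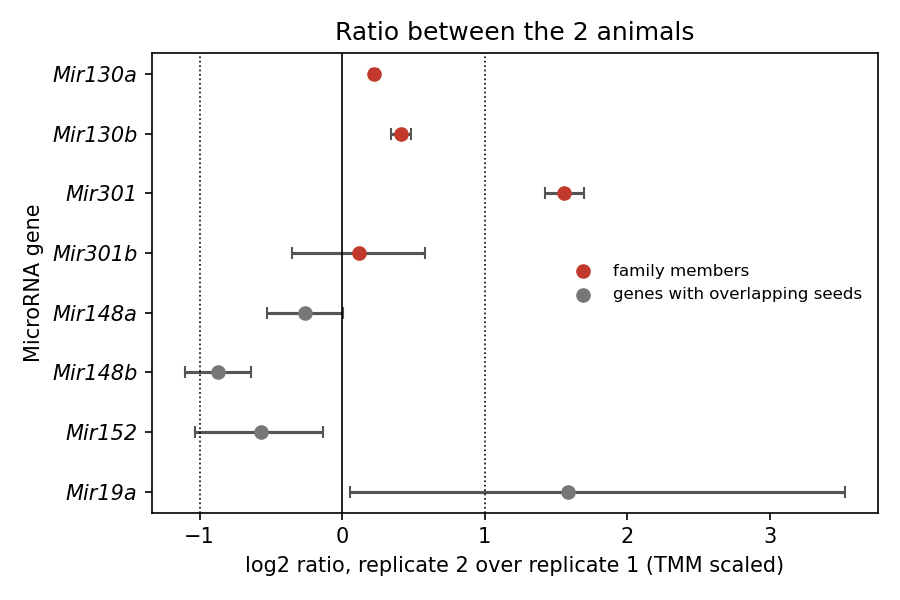
Log2 ratio of replicate 2 over replicate 1 for the 4 members and for 4 genes with overlapping seeds, with 95% exact counting intervals. Dotted lines mark 2-fold. Mir301 at 1.56 lies beyond that line with its whole interval, while Mir130a, Mir130b and Mir301b lie between 0.12 and 0.41.

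Markers of other cells also differed between the libraries. Endothelial Mir126a stood at 19723 CPM in replicate 2 and 12842 CPM in replicate 1, and mural cell markers summed to 4092 and 3477 CPM in the same order. The 2 mural markers went opposite ways, with Mir143 at 3994 and 3337 CPM and Mir145a at 97.8 and 139.8 CPM. The 3 red cell markers, all detected, summed to 550 CPM in replicate 2, against 60.2 CPM in replicate 1. Mir451a (491 and 16.9 CPM, replicate 2 first) held most of the sum in replicate 2, while Mir486 was lower there (30.4 and 36.8 CPM). The 5 microglia and leukocyte markers summed to 1185 and 1104 CPM. Among them Mir150 (326 and 397 CPM) and Mir223 (10.9 and 21.1 CPM) were lower in replicate 2, and the others were higher. Lower in replicate 2 were the sums of the 5 epithelial markers, at 93.8 CPM against 1930 CPM in replicate 1, and of the 7 choroid plexus and ciliated cell markers, at 2794 against 5228 CPM. So were the neuronal sum given above and the sums of the 4 neural progenitor markers, at 3886 against 5659 CPM, and the 3 oligodendrocyte markers, at 613 against 913 CPM. Most of the last 2 sums came from Mir92b (3629 against 5396 CPM) and Mir338 (439 against 735 CPM). Within these lists Mir9-3 (198 against 182 CPM), Mir219a-1 (73.2 against 45.8 CPM) and the low Mir211, Mir124a-1 and Mir124a-2 were higher in replicate 2. No marker was at 0 in both libraries. Their part in the ratios of Mir301 and the other members was not tested. In tissue RNA, fewer cells of a type and less RNA per cell cannot be told apart.

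The genes nearest to each member in level in both libraries, by distance on log2(CPM + 1) over 2 libraries and among 446 detected genes outside the family, were listed as a description. Mir433, Mir151 and Mir324 lay nearest to Mir130a, at distances of 0.04, 0.15 and 0.16. Mirlet7c-1, Mir467d and Mir351 lay nearest to Mir130b, at 0.10, 0.25 and 0.26, and Mir677, Mir3097 and Mir190a nearest to Mir301b, at 0.11, 0.12 and 0.13. Mir301 had no gene so close. Its nearest, Mir7-2, Mir1981 and Mir331, stood at distances of 0.77, 0.79 and 0.82, and Mir7-2 had 474 CPM in replicate 2 and 303 CPM in replicate 1.

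**Figure D3:**
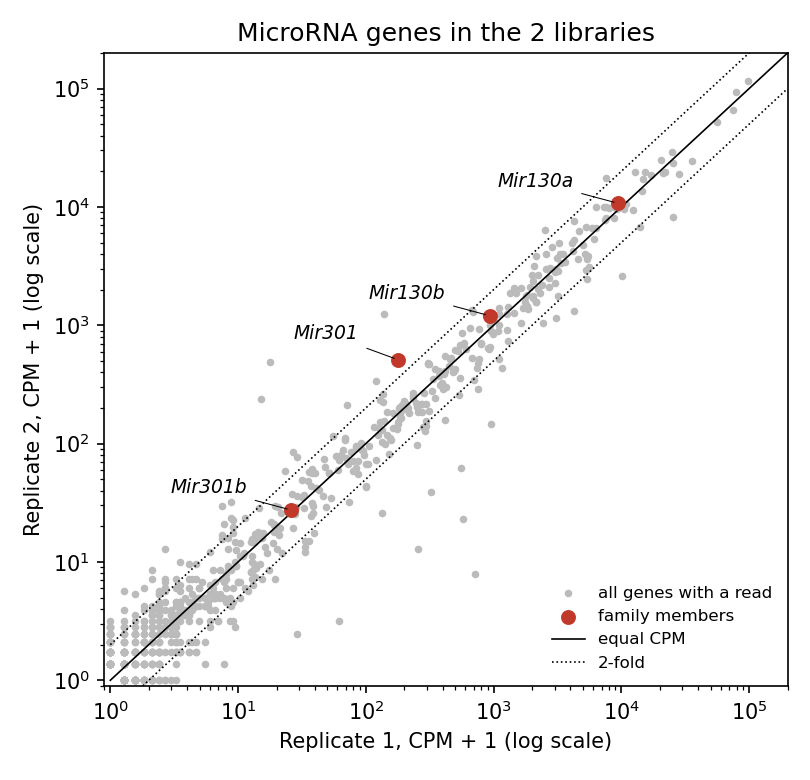
CPM + 1 of replicate 2 against replicate 1 for the 795 genes with a read in either library, on log axes, with the 4 members in red, a line of equal CPM and dotted lines at 2-fold. Mir130a, Mir130b and Mir301b lie along the line, and Mir301 lies above the 2-fold line with few genes around it.

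Outside the family, 4 more mouse genes in the RefSeq table have a mature product with the same seed, and their sequences are shown to set them beside the members.
mmu-miR-721: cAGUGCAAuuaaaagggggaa
mmu-miR-130c: cAGUGCAAuguuccaaggugug
mmu-miR-6341: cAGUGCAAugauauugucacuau
mmu-miR-6389: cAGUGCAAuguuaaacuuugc

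MiR-6389 shares its first 15 bases with miR-130a-3p, and miR-6341 shares its first 12 with miR-130b-3p. None of Mir721, Mir130c, Mir6341 and Mir6389 had a read in either library. The limit of 3 counts set for a 0 is 1.09 CPM in replicate 2, against 0.844 CPM in replicate 1, and the two-sided Wilson interval reaches 1.39 and 1.08 CPM in the same order (counting error only). Both limits lie below the level of Mir301b, the lowest member. The longest run that a member's hairpin shares with any other hairpin of the table was 17 bases for Mir130a and 16 for Mir130b, Mir301 and Mir301b, shorter than the 7 mature products printed for the members. A complete read of any of these 7 therefore matches no other hairpin of that table exactly. Trimmed reads, copies elsewhere in the genome and castaneus variants were not tested.

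Seeds that overlap this one by 6 bases belong to 2 other groups, shown with the seed in capitals.
mmu-miR-148a-3p: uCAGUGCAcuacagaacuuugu
mmu-miR-19a-3p: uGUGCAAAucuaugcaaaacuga

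The Mir130 and Mir301 family summed to 12476 CPM in replicate 2, against 174 CPM for the Mir148 group (Mir148a, Mir148b and Mir152) there, and stood 71.6-fold above it. In replicate 1 the family summed to 10560 CPM against 274 CPM for that group, a 38.6-fold excess. The log2 ratio of summed counts between the animals was 0.28 (0.26 to 0.30) for the family and -0.61 (-0.77 to -0.45) for the Mir148 group. These intervals do not overlap but cover counting error only. Mir148a had 69.9 CPM in replicate 2 and 86.1 CPM in replicate 1, Mir148b 80.8 and 152 CPM, and Mir152 23.5 and 36.0 CPM, so all 3 were lower in replicate 2. The Mir19 genes are members of the oncogenic cluster around Mir17 and its paralog, and Mir19b-1 and Mir19b-2 yield the same 3p product. Mir19a had only 12 counts in replicate 2, against 5 in replicate 1, and Mir19b-1 and Mir19b-2 had 1 to 4 counts in either library. A read that matches both Mir19b copies is not assigned to a gene, so their levels are uncertain.

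Hardly any read of the family lay on the opposite strand. No member had a read on the opposite strand except Mir130a, with 2 such reads in replicate 1 and none in replicate 2. Raw counts without regard to strand were otherwise the same as those on the annotated strand for every member in both libraries. Their CPM differed because the total of microRNA reads is smaller without strand.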

How the data were processed

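The authors deposited a table of raw counts for each library, neither pooled nor normalized, with whole numbers of reads for every microRNA gene. Per the deposited notes, the build was mm10 and the annotation GENCODE M21. The aligner, counter, trimming and filters are not given in the sources used here. No header names the 3 value columns. From the layout they were taken as unstranded reads, reads on the annotated strand (used here) and reads on the opposite strand. Library sizes exclude the leading totals, which hold the unmapped, multiply mapped and unassigned reads and with the microRNA counts make up all reads of a library.

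From these counts, CPM, 95% Wilson intervals for shares, 95% exact Clopper-Pearson intervals for ratios and log2 ratios with 0.5 added were computed with Python 3.11.15, scipy 1.17.1 and TMM factors of edgeR 4.0.16 over genes with at least 10 counts in all. The ratio computation was tested on simulated counts with counting error only, after a shared scaling offset was removed. That simulation therefore checks neither the scaling nor any spread between animals. Intervals cover counting error only, since amplified reads are not independent molecules. With 1 group of 2 animals no test of a gene or condition was run, and the chi-square compared the 2 libraries only. Symbols of all 2202 IDs matched M21. Named genes were the members, genes with the same or an overlapping seed, microRNA genes within 10 kb and the 3 nearest by level. The members and lists were chosen with earlier results of these data known. Scaling, strand, length, detection minimum and left-out libraries were varied.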

Additional observations from a re-analysis of the deposited data

How the results depend on the processing

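Levels were also scaled to all reads of a library instead of the reads assigned to microRNA genes. They were then 2925 for Mir130a, 308.6 for Mir130b, 97.9 for Mir301, 7.48 for Mir301b and 3339 for the family sum. They are lower because reads assigned to a microRNA gene on the annotated strand are 27.8% to 30.4% of a library. With reads on either strand Mir301b stood at 27.4 CPM. Per hairpin base the shares of the family were 90.2% for Mir130a, 7.41% for Mir130b and 0.152% for Mir301b. The log2 ratio of Mir130a was 0.19 with library size and 0.17 with TMM factors from all genes. The order of the 4 members and their detection at 2 CPM were the same under every setting tried for each. The sign of their ratios was also the same, but scaling to all reads was not among the settings tried for ratios. Under that scaling Mir301b was slightly lower in replicate 2 (73 of 9938361 reads) than in replicate 1 (89 of 11686912 reads). The other members were still higher in replicate 2. Leaving out a library gave 10736 or 9427 CPM for Mir130a, 1203 or 930 for Mir130b, 510 or 178 for Mir301 and 26.4 or 25.0 for Mir301b, so the mean of Mir301 moves by 1.48-fold without replicate 1 and 1.93-fold without replicate 2. At a minimum of 100 CPM 3 of 4 members were detected. With 2 libraries, depth limits Mir301b most, and counting intervals say nothing of the spread between animals. No paired analysis was possible because there is 1 group.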
